A study of Mus musculus with 13 samples.

Results

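Condensins are ring-shaped ATPase complexes that compact chromosomes for mitosis. The 8 genes described here encode their subunits: Smc2 and Smc4, the coiled-coil ATPases shared by both complexes, Ncaph, Ncapg and Ncapd2, which are found in condensin I alone, and Ncaph2, Ncapg2 and Ncapd3, which are found in condensin II alone. They were chosen by name, and each was read from the probe set annotated to its symbol alone, so the 8 genes are 8 of the 19938 genes with such a probe set. Each had a single such probe set. Ncaph2 lay below the filter on dim genes, so 7 of the 8 were among the 14953 genes tested.

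Condensin II resides in the nucleus through the cell cycle and begins to condense chromosomes in prophase, whereas condensin I reaches them after the nuclear envelope has broken down. The retinoblastoma protein, RB, is linked to both sides of this system. It represses E2F target genes of the S and G2 phases, and in fruit fly, human and mouse cells it also helps to load condensin II onto chromatin, through a contact that involves the subunit encoded by Ncapd3 and that depends in mouse fibroblasts on the LXCXE-binding site of RB. The N750F substitution alters that site. The arrays read RNA levels of the subunits and say nothing of their loading.

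Liver RNA of 13 mice aged 14 days was hybridised to 1 array each, as far as the labels say. The groups were N750F livers after diethylnitrosamine (DEN, 5 arrays), knockout livers after DEN (2), heterozygous livers after DEN (2), wild type livers after DEN (2) and untreated wild type livers (2). DEN, a carcinogen that becomes DNA-alkylating once hepatocytes metabolise it, was injected once at 20 mg/kg into the peritoneum, and livers were collected 24 h later, while the series text gives saline to the untreated mice. In knockout mice Rb1 is floxed and an albumin-Cre transgene is meant to delete it in hepatocytes, so other cells of the liver may keep the gene. How far the deletion had gone in these livers was not known here. In heterozygous mice 1 of the Rb1 alleles is floxed in the presence of Cre and the other is functional, although a second field tags these mice LOH. Wild type means floxed Rb1 without Cre, although the series text describes all mice as Cre transgenic. The label of the N750F group does not give its other allele or Cre.

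The arrays were run in 2 runs, with 9 arrays in run 1 and 4 in run 2. Both knockout and both untreated arrays were in run 1, N750F had 3 arrays in run 1 and 2 in run 2, and heterozygous and wild type DEN had 1 in each. By the level of Y-linked genes, both knockout and both heterozygous mice were male, both wild type DEN mice were female, N750F mice were 1 male (array 1) and 4 females, and untreated mice were 1 male and 1 female. Xist RNA was at 12.31 to 12.78 in the female arrays. It was at 8.05 in heterozygous array 4 and at 5.64 to 6.16 in the other male arrays, and the source of this difference was not tested. Levels below are log2 of the quantile-normalized intensity plus 16, and differences are from 1 limma model of all arrays with a term for the run. A gene was called at an adjusted p under 0.05 over all genes tested. The litters of the mice are not given, so the spread behind the p-values is that between these arrays, whose small number limits the precision. Hepatocyte markers were high in every array, with a list mean of 11.76 to 12.24. Knockout array 2 stood apart by skeletal muscle RNA, with a mean of 8.67 over 8 muscle genes against at most 6.04 in the other arrays. Rb1 itself was at 7.92 and 6.57 in knockout arrays 1 and 2. Elsewhere it was at 8.04 and 8.01 (wild type DEN), 7.92 and 7.62 (heterozygous), 7.27 and 7.15 (untreated) and 7.82 to 8.43 (N750F). Knockout array 1 thus lay within the N750F range, above both untreated arrays and a little below both wild type DEN arrays. Knockout array 2 was the lowest of all arrays. Whether the Rb1 probe set lies in the deleted part was not known here, so the 2 arrays are called knockout by their label only.

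After DEN, transcripts of the condensin subunits were more abundant in N750F livers than in wild type or heterozygous livers. Smc2, Smc4, Ncapg and Ncapg2 rose against wild type, by 1.37 to 2.06 on the log2 scale, and 6 of the 7 tested subunits rose against heterozygous livers. Ncapd3 missed the threshold in both comparisons. Ncaph2 was dim in every array. For all subunits but Smc4, 1 or more arrays of the lower groups were within the background described below with Ncaph2, so the sizes of these differences may be lower limits. That background is taken up to the 95th percentile of the olfactory receptor genes. Ncapd2 lay above it in 0 of 13 arrays and Ncapg2 in 1, so most of their N750F levels were within it too. In wild type livers after DEN no subunit passed the test against untreated livers.

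**Figure D1:**
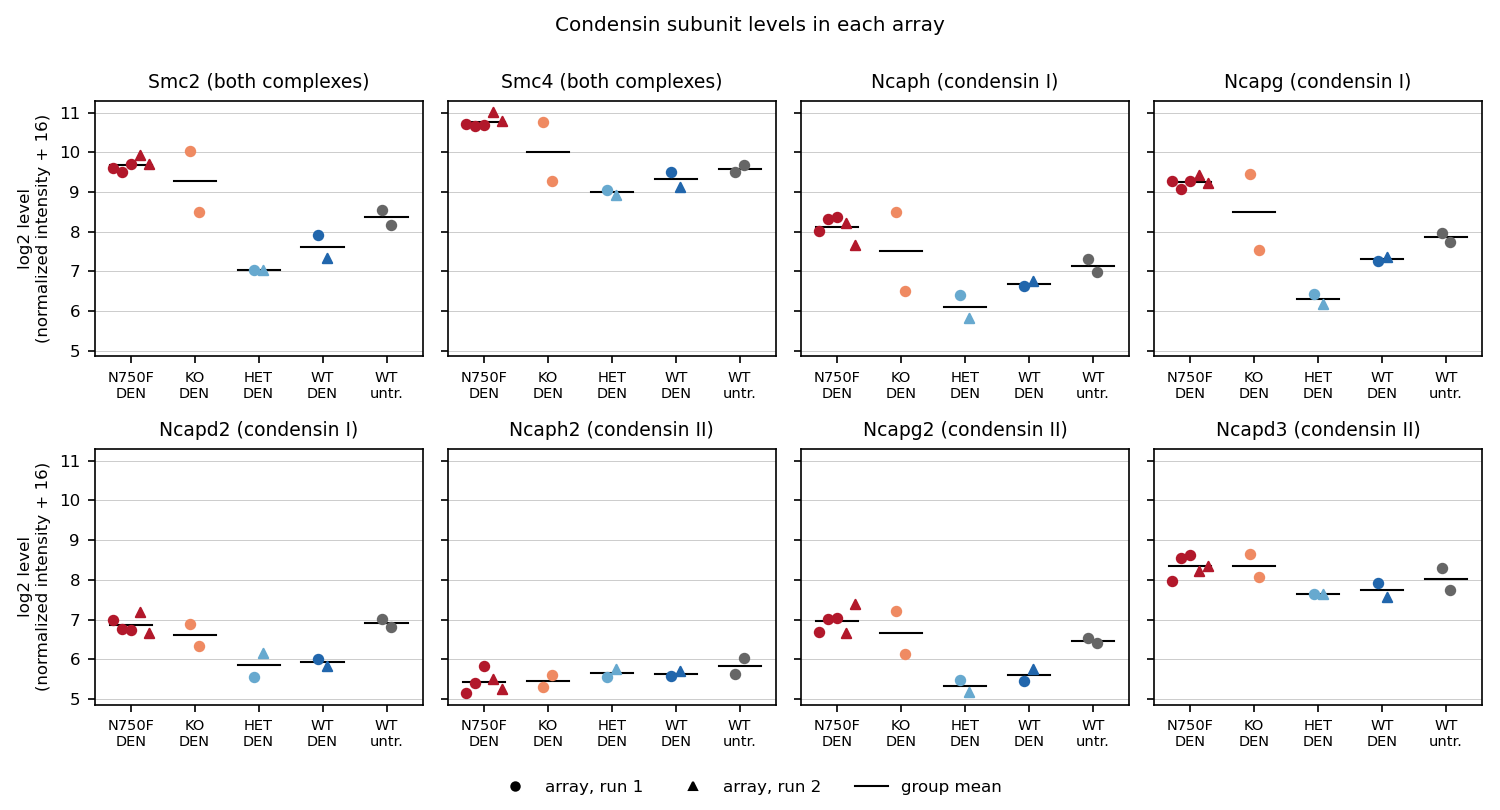
Log2 level (normalized intensity plus 16) of the 8 condensin subunits in each of the 13 arrays, by group, with circles for run 1, triangles for run 2 and a line at the group mean. In 7 panels every N750F array lies above every heterozygous and wild type DEN array, and in the Ncaph2 panel the groups overlap.

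Smc2, an ATPase of both complexes, was at 9.60, 9.50, 9.70, 9.92 and 9.72 in the N750F arrays, at 10.03 and 8.51 in knockout, at 7.03 and 7.04 in heterozygous, at 7.90 and 7.35 in wild type DEN and at 8.55 and 8.17 in untreated arrays. The N750F arrays were all above the heterozygous, wild type DEN and untreated ones, and the 2 heterozygous arrays were the lowest of the 13. Smc2 was 2.06 ± 0.33 higher in N750F than in wild type livers after DEN (log2 difference ± SE, limma adjusted p = 0.00904) and 2.65 ± 0.33 higher than in heterozygous livers (limma adjusted p = 0.00108). The difference from heterozygous livers had rank 30 among the 14953 genes tested.

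Smc4 is the partner of Smc2 in the ATPase pair. It was at 10.71, 10.66, 10.68, 11.00 and 10.77 in N750F, 10.75 and 9.27 in knockout, 9.06 and 8.93 in heterozygous, 9.51 and 9.13 in wild type DEN and 9.50 and 9.68 in untreated arrays. The N750F arrays again lay above all arrays of heterozygous, wild type DEN and untreated livers, while wild type DEN and untreated arrays overlapped. The difference was 1.44 ± 0.31 against wild type DEN (limma adjusted p = 0.0365) and 1.77 ± 0.31 against heterozygous livers (limma adjusted p = 0.00935).

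Among the condensin I subunits, Ncapg, a HEAT-repeat subunit, showed the widest range of the 8 genes over the 13 arrays, 3.30 on the log2 scale. It was at 9.27, 9.07, 9.28, 9.42 and 9.22 in N750F, 9.46 and 7.54 in knockout, 6.42 and 6.17 in heterozygous, 7.27 and 7.37 in wild type DEN and 7.98 and 7.73 in untreated arrays. Apart from knockout, no group overlapped another. Ncapg was 1.93 ± 0.36 higher in N750F than in wild type DEN livers (limma adjusted p = 0.0185) and 2.96 ± 0.36 higher than in heterozygous livers (limma adjusted p = 0.00108), rank 16 among all genes tested.

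Ncaph encodes the kleisin that closes the ring of condensin I. Its levels were 8.02, 8.32, 8.37, 8.22 and 7.66 in N750F, 8.50 and 6.50 in knockout, 6.41 and 5.82 in heterozygous, 6.64 and 6.75 in wild type DEN and 7.30 and 6.97 in untreated arrays. The order of groups was that of Ncapg, with a wider spread in N750F and heterozygous livers. Against heterozygous livers Ncaph rose by 1.98 ± 0.39 (limma adjusted p = 0.0195), and against wild type DEN its difference of 1.40 ± 0.39 missed the threshold (limma adjusted p = 0.11).

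Ncapd2, the other HEAT-repeat subunit of condensin I, had a different order. Its levels were 6.98, 6.77, 6.75, 7.19 and 6.66 in N750F, 6.89 and 6.33 in knockout, 5.56 and 6.16 in heterozygous, 6.01 and 5.84 in wild type DEN and 7.02 and 6.82 in untreated arrays. Both untreated arrays lay within the N750F range, and the groups that stood low were wild type and heterozygous livers after DEN. The difference was 1.02 ± 0.24 between N750F and heterozygous livers (limma adjusted p = 0.0446, a call that held in 9 of 24 alternative settings, with adjusted p of 0.033 to 0.346), 0.96 ± 0.24 between N750F and wild type DEN (limma adjusted p = 0.0663), and -0.11 ± 0.25 between N750F and untreated livers (limma adjusted p = 0.855).

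Of the condensin II subunits, Ncapg2, the condensin II counterpart of Ncapg, was at 6.70, 7.02, 7.05, 6.66 and 7.39 in N750F, 7.21 and 6.13 in knockout, 5.49 and 5.16 in heterozygous, 5.44 and 5.75 in wild type DEN and 6.54 and 6.40 in untreated arrays. Wild type and heterozygous DEN arrays overlapped and were below all others. Ncapg2 was 1.37 ± 0.29 higher in N750F than in wild type DEN (limma adjusted p = 0.0337) and 1.64 ± 0.29 higher than in heterozygous livers (limma adjusted p = 0.0095).

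Ncapd3, whose product takes part in the contact with RB, varied less, over 1.07 on the log2 scale. It was at 7.98, 8.55, 8.63, 8.21 and 8.36 in N750F, 8.64 and 8.06 in knockout, 7.65 and 7.64 in heterozygous, 7.91 and 7.57 in wild type DEN and 8.29 and 7.76 in untreated arrays. The N750F arrays were above all arrays of the heterozygous and wild type DEN groups, but the lowest, array 1, was only a little above the higher wild type array. The differences of 0.59 ± 0.25 against wild type DEN (limma adjusted p = 0.292, 95% interval 0.06 to 1.12) and 0.69 ± 0.25 against heterozygous livers (limma adjusted p = 0.281, 0.15 to 1.22) did not pass.

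Ncaph2, the kleisin of condensin II, was at 5.15, 5.41, 5.83, 5.49 and 5.25 in N750F, 5.30 and 5.61 in knockout, 5.55 and 5.74 in heterozygous, 5.59 and 5.69 in wild type DEN and 5.64 and 6.03 in untreated arrays. Every neighbouring pair in the order of its group means overlapped. With the filter on dim genes removed, N750F minus wild type DEN was -0.21 ± 0.23 (limma adjusted p = 0.727) and N750F minus heterozygous was -0.22 ± 0.23 (limma adjusted p = 0.793). The 1027 olfactory receptor genes, which serve as a rough background since liver is not known to use them, had medians of 5.56 to 5.85 per array. Ncaph2 was at that level, so a difference in its RNA may not have been measurable by this probe set. Smc4 lay above the 95th percentile of those genes in all 13 arrays, Ncapd3 in 12, Smc2 in 10, Ncapg in 9, Ncaph in 6, Ncapg2 in 1, and Ncapd2 and Ncaph2 in 0. For Smc2, Ncapg and Ncapd3 the arrays below it were all of the heterozygous or wild type DEN group. Smc2, Ncaph and Ncapg were below it in both heterozygous arrays, and Ncaph and Ncapg in both wild type DEN arrays. Smc2 and Ncapd3 were below it in wild type DEN array 4, and Ncaph also in knockout array 2 and both untreated arrays. The differences of Ncaph and Ncapg from heterozygous and wild type DEN livers therefore rest on levels that this background does not tell from no signal. For Smc2 this holds for heterozygous livers and for wild type DEN array 4, while wild type DEN array 3 was above the background (7.90 against 7.40). Ncapd2 was below it in every array and Ncapg2 in every array but N750F array 5. Apart from that array, their N750F levels were not above this background either.

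Counted together, 4 of 7 tested subunits rose in N750F against wild type DEN, where 1.13% of all genes were called higher, and 6 of 7 rose against heterozygous livers, where 1.3% were. None fell, where 0.288% and 0.334% of all genes were called lower. The median difference of the 7 was 1.40 and 1.77 in these comparisons, beside medians of -0.01 and -0.01 over all genes. All 7 had every N750F array above both wild type DEN arrays and above both heterozygous arrays, which held for 6.78% and 6.43% of all genes. The 2 comparisons share the N750F arrays. Within run 1 the 7 differences from wild type DEN were 0.48 to 1.94, and within run 2 they were 0.71 to 2.47. Against heterozygous livers they were 0.74 to 2.78 within run 1 and 0.64 to 3.15 within run 2, where each of these runs held 1 array of the wild type DEN and 1 of the heterozygous group, and in run 1 alone no subunit was called. Without wild type DEN array 4 no subunit was called against wild type, and without wild type DEN array 3 Smc2 alone was. Without heterozygous array 4 no subunit was called against heterozygous livers, and without heterozygous array 3 Smc2 and Ncapg were. Smc2 and Ncapg were the calls left against wild type DEN without N750F array 2, 3 or 5 or either untreated array, while Ncaph and Ncapd2 were called too without either or both knockout arrays. In both comparisons Smc2 and Ncapg were the calls left when the Y-linked level entered the model. The male N750F mouse, array 1, was at 9.60 for Smc2 and 9.27 for Ncapg, within the range of the 4 female N750F mice, 9.50 to 9.92 and 9.07 to 9.42.

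**Figure D2:**
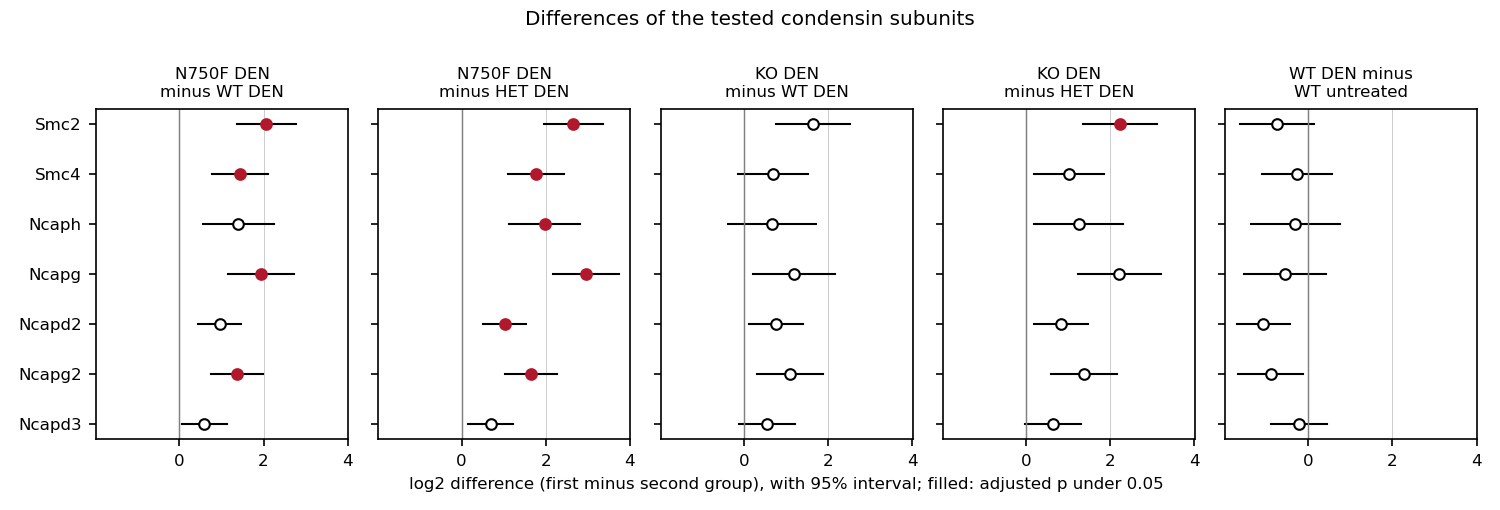
Log2 differences (first minus second group) of the 7 tested condensin subunits with 95% intervals in 5 comparisons, filled where the adjusted p was under 0.05. N750F minus wild type DEN has 4 filled points, N750F minus heterozygous has 6, knockout minus heterozygous has 1 and the other comparisons have none.

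The 2 knockout arrays differed from each other by more than the range of any other group for Smc2, Smc4, Ncaph, Ncapg and Ncapg2. Array 1 was as high as the N750F arrays: of the 8 genes, 4 were above the N750F range and 4 within it. Array 2 was below the N750F range for 6 genes, and 7 of the 8 genes were lower in array 2 than in array 1. The gap (array 2 minus array 1) was -2.00 for Ncaph, -1.93 for Ncapg, -1.52 for Smc2, -1.48 for Smc4 and -1.07 for Ncapg2, against SDs of 0.14 to 0.29 for these genes pooled within the other 4 groups. The array with less Rb1 signal (6.57 in array 2, 7.92 in array 1) was the one with less condensin RNA, and it was also the one with muscle RNA. The drop was not particular to condensin genes. The mean of the 9 genes of the proliferation list described below was 8.99 in array 1 and 6.70 in array 2. The part of the muscle RNA in these gaps was not tested.

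Both knockout mice were male and both wild type DEN mice female, so genotype and sex cannot be told apart in their comparison. Knockout livers had higher means than wild type DEN livers for all 7 tested subunits, with differences of 0.55 to 1.64, but none passed (limma adjusted p of 0.221 to 0.745, with 4 at an unadjusted p under 0.05, and 0.0468% of all genes called). Of the 7, 5 had both knockout arrays above both wild type DEN arrays, where 16.4% of all genes did. Smc4 and Ncaph changed sign without knockout array 1, to -0.05 and -0.33, and Smc2 and Ncapg were called without knockout array 2. Against heterozygous livers Smc2 rose by 2.23 ± 0.41 (limma adjusted p = 0.0419, where 0.221% of all genes were called higher), and the other 6 had differences of 0.64 to 2.22 that did not pass. Both knockout arrays lay above both heterozygous arrays for all 7 subunits, as they did for 18.8% of all genes. The Smc2 call was lost on leaving out any 1 array other than knockout array 2, while without knockout array 2 Smc2, Smc4, Ncaph, Ncapg and Ncapg2 were called.

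No subunit passed the test between N750F and knockout livers. The differences (N750F minus knockout) were 0.05 to 0.76, with 0 called among all 14953 genes and 1 subunit, Smc4, at an unadjusted p under 0.05. The intervals were wide: 0.76 (95% interval 0.06 to 1.45) for Smc4, 0.74 (-0.08 to 1.56) for Ncapg and 0.42 (-0.31 to 1.15) for Smc2. The result turned on which knockout array was used. Without array 1, Smc2, Smc4, Ncaph and Ncapg were called higher in N750F, and without array 2, 6 of the 7 differences fell below 0, with Smc2 at -0.34.

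**Figure D3:**
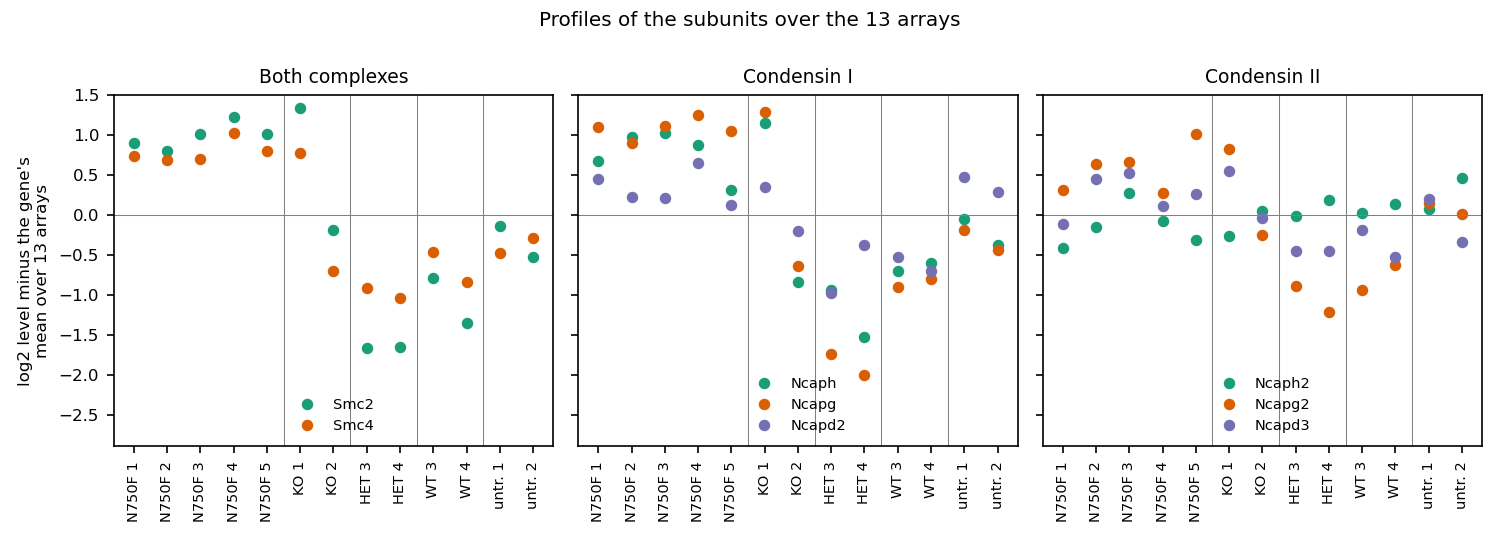
Log2 level of each subunit minus its mean over the 13 arrays, with 1 point per array and the groups set apart by vertical lines. Knockout array 1 lies with the N750F arrays for Smc2, Smc4, Ncaph, Ncapg and Ncapg2, knockout array 2 lies below it, and Ncaph2 varies by 0.88 in all.

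Heterozygous and wild type livers after DEN were the 2 lowest groups for all subunits but Ncaph2. Heterozygous minus wild type was below 0 for all 7 tested subunits, from -1.02 ± 0.43 for Ncapg to -0.07 ± 0.28 for Ncapd2, and none passed (limma adjusted p of 0.717 to 0.986, with 1 at an unadjusted p under 0.05, and 0.00669% of all genes called). For Smc2, Smc4, Ncaph and Ncapg both heterozygous arrays were below both wild type arrays, where 13.6% of all genes were. Both heterozygous mice were male and both wild type DEN mice female, so genotype and sex cannot be told apart here.

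The group mean of untreated livers was between those of N750F and wild type DEN livers for 6 of the 8 subunits and the highest of the 5 for Ncapd2 and Ncaph2. The comparisons with them share their 2 arrays. All untreated livers were wild type. When N750F, knockout or heterozygous livers after DEN are compared with them, genotype and DEN therefore cannot be told apart. In wild type livers after DEN all 7 tested subunits had lower means than in untreated livers, and none passed (limma adjusted p of 0.126 to 0.853, with 0.689% of all genes called). Ncapd2 had the largest difference, -1.07 ± 0.30 (limma adjusted p = 0.126), then Ncapg2 with -0.90 ± 0.36 (limma adjusted p = 0.29), and these 2 were the ones at an unadjusted p under 0.05. For 5 of the 7 both DEN arrays were below both untreated arrays, as for 23.5% of all genes. In heterozygous livers after DEN the differences from untreated were -1.57 ± 0.46 for Ncapg, -1.32 ± 0.41 for Smc2, -1.17 ± 0.36 for Ncapg2 and -1.13 ± 0.30 for Ncapd2, and again none of the 7 passed (limma adjusted p of 0.0773 to 0.702, with 4 at an unadjusted p under 0.05, and 1.4% of all genes called). Without either knockout array or both, Smc2 and Ncapg were called lower. All 7 subunits had both heterozygous arrays below both untreated arrays, as had 26.6% of all genes.

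In N750F livers after DEN, Smc2 was higher by 1.33 ± 0.34, Smc4 by 1.18 ± 0.32 and Ncapg by 1.38 ± 0.38 than in untreated wild type livers. Their limma adjusted p was 0.0376, 0.047 and 0.047, so 3 of 7 were called, where 3.87% of all genes were called higher. Ncaph differed by 1.09 ± 0.41, Ncapg2 by 0.48 ± 0.30, Ncapd3 by 0.37 ± 0.26 and Ncapd2 by -0.11 ± 0.25, none of them past the threshold. These 3 calls were close to it: no subunit was called with an offset of 1, with median scaling, without the run term, in run 1 alone, with the Y-linked level in the model, or on leaving out any 1 array other than the knockout arrays and N750F array 4. Knockout minus untreated ran from -0.31 for Ncapd2 to 0.91 for Smc2 with no call among the 7 (limma adjusted p of 0.471 to 0.909, 1 at an unadjusted p under 0.05, and 0.0869% of all genes called).

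The subunits were not held in a constant ratio over the arrays. The ratio of Smc2 to Ncapg was the steadiest of the 28 pairs, with an SD of 0.24 on the log2 scale over 13 arrays, although each gene alone had an SD of 1.12 and 1.18. Smc4 and Ncaph came next, with 0.31. The subunits of condensin I were no steadier among themselves, at 0.40 for Ncaph with Ncapg, 0.61 for Ncaph with Ncapd2 and 0.83 for Ncapg with Ncapd2. Ncapd2 with Ncapd3 had 0.38, but a small SD of a ratio is easier to reach for genes that vary little. These SDs describe the probe sets over shared arrays and carry no test.

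**Figure D4:**
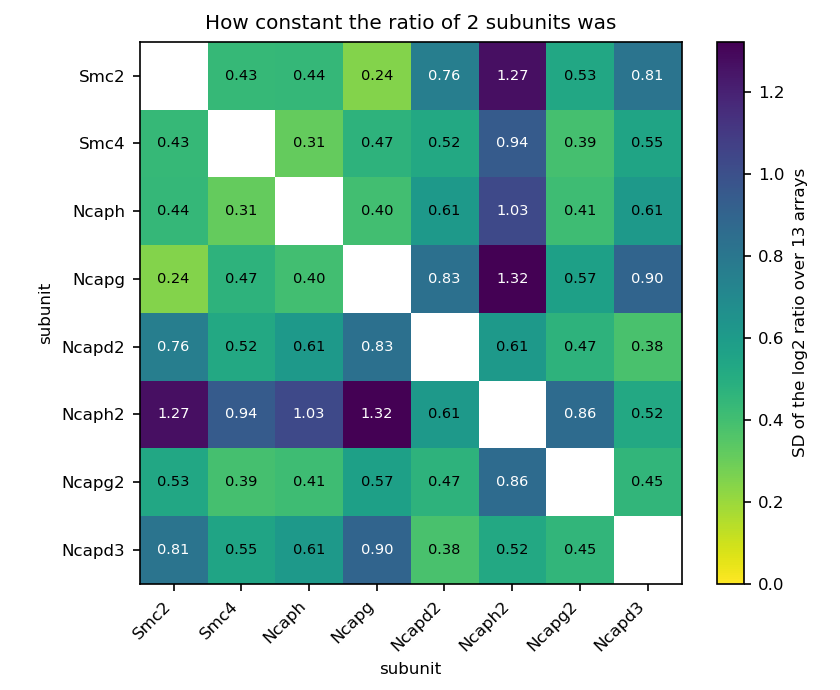
SD over the 13 arrays of the log2 ratio of each pair of condensin subunits, where a low value means that the pair kept its ratio. The lowest value is 0.24 for Smc2 with Ncapg and the highest 1.32 for Ncapg with Ncaph2.

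By the same measure, over 13862 other genes, those most like Smc2 were Kif20b (0.23), Knl1 (0.23) and Kif4 (0.24), a mitotic kinesin, a kinetochore scaffold and a chromosome-bound kinesin. Most like Ncapg were Hmmr (0.27), Kif20b (0.28) and Cenpe (0.30), a spindle protein, the same kinesin and the kinetochore motor CENP-E. Genes nearest to Smc4 were Fam111a (0.21), Ccne2 (0.23), which encodes cyclin E2, and Cenpq (0.24), and those nearest to Ncaph were Mms22l (0.27), Brip1 (0.28) and Cenpq (0.30). Ncapg2 was nearest to Hmgb2 (0.22), the helicase gene Mcm3 (0.22) and Omd (0.25), Ncapd2 to Arsb (0.22), Rpa3 (0.25) and Pcna (0.25), the sliding clamp of replication, and Ncapd3 to the cohesin gene Rad21 (0.19), Sri (0.20) and Chek2 (0.20). For the mean of the 7 tested subunits the nearest were Brip1 (0.18), Cenph (0.21) and Fam111a (0.23).

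Promoter letters are shown for the 5 subunits called in N750F against heterozygous livers that have a window in the table (Smc4 has none there), and for Ncaph2, which was not tested. The sequences are the 120 bases before the annotated start, from RefSeq (GRCm38.p6), with capitals for the letters of an E2F site (TTTCCCGC, TTTGGCGC, TTTCGCGC or TTTGCCGC) or of a cell cycle homology region (CHR, TTTGAA or TTCGAA), searched on both strands. Smc2 and Ncaph hold no such letters in this stretch.
Smc2, chr4:52439101-52439220, plus strand: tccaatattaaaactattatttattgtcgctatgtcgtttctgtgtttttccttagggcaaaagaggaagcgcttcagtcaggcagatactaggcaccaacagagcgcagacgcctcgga
Ncaph, chr2:127133955-127134074, minus strand: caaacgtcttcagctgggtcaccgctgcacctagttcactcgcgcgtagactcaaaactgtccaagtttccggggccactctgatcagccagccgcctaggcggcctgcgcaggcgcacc
Ncapg, chr5:45669805-45669924, plus strand: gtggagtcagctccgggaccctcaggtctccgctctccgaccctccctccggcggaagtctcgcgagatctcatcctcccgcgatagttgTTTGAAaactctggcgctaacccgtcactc
Ncapg2, chr12:116405316-116405435, plus strand: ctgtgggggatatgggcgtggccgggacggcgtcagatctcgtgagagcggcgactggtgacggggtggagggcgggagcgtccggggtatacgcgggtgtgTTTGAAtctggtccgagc
Ncapd2, chr6:125191587-125191706, minus strand: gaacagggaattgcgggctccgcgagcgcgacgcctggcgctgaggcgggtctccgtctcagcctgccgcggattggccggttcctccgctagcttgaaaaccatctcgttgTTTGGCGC
Ncaph2, chr15:89355599-89355718, plus strand: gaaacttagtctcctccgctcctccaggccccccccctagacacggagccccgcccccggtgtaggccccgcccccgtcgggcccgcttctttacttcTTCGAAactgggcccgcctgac

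E2F sites are bound by E2F factors with RB or its relatives, and CHR elements by the MuvB complexes that act on genes of G2 and mitosis. In the 250 bases before the start, the CHR letters were found in 6 of the 7 subunits with a window in the table (Smc2, Ncapg, Ncapd2, Ncaph2, Ncapg2 and the second of 2 starts of Ncapd3) and in 17.1% of all 32851 windows. The E2F letters were found in Ncapd2 and Ncapg2, against 1.86% of all windows, and CCAAT in Smc2, Ncapg and Ncapd2, against 33.8%. No E2F match overlapped a CHR match. Ncaph2 held the CHR letters at positions -22 to -17 from its start, and Ncaph held none of the letters. The E2F letters of Ncapg2 and the CHR letters of Ncapd2 and Smc2 begin farther from the start than the stretches printed. A match is a description of the window and not a bound site, and Smc4 is named only.

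Known partners and regulators of condensin were read from a list of 16 genes, of which 14 were tested. In N750F livers 7 of the 14 rose against wild type DEN and 7 against heterozygous livers, where 1.13% and 1.3% of all genes were called higher. The medians of the list were 1.30 and 1.46, and none was lower. The genes that rose were the same 7 in both. Top2a, topoisomerase II alpha, which works with condensin on the chromosome axis, differed by 2.63 ± 0.49 and 3.29 ± 0.49 (limma adjusted p = 0.0176 and 0.00357). Kif4, the kinesin that binds condensin I, differed by 1.97 ± 0.36 and 2.37 ± 0.36, and Mki67, the Ki-67 protein of the chromosome surface, by 2.61 ± 0.40 and 3.55 ± 0.40. The mitotic kinases Cdk1, Aurkb, Plk1 and Ttk, which phosphorylate condensin subunits, made up the rest, with differences of 1.32 to 2.43 against wild type DEN. In the heterozygous and wild type DEN arrays these 7 genes lay within the olfactory receptor background, apart from Top2a in wild type DEN array 3. Aurkb was also within it in N750F arrays 1, 4 and 5 (6.50, 7.05 and 7.24), and Cdk1 in N750F arrays 1 and 5 (6.51 and 7.23). Top2b, the isoform that does not depend on proliferation (0.15 ± 0.22 against wild type DEN), Akap8 (-0.06 ± 0.19) and Phf8 (0.05 ± 0.21) did not pass. Mcph1, microcephalin, an inhibitor of condensin II, was at 1.28 ± 0.41 (limma adjusted p = 0.175) against wild type DEN and 0.63 ± 0.41 against heterozygous livers. Its level was 4.34 in wild type DEN array 4 and 6.78 in array 3.

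Genes of proliferation also rose in N750F against wild type DEN and heterozygous livers. Of 9 tested genes of a proliferation list, 9 and 8 were called higher there, where 1.13% and 1.3% of all genes were. Their medians were 2.44 and 2.77, and Top2a, Mki67, Cdk1 and Plk1 are also in the list of partners. Against untreated livers 0 of the 9 were called in N750F (median 1.04), where 3 of 7 subunits were. In wild type livers after DEN 2 of the 9 were called lower than in untreated livers (median -1.30), where no subunit was. In whole liver, more dividing cells and more RNA per cell in N750F cannot be told apart. Markers of macrophages and Kupffer cells also moved: 11 of 11 had differences above 0 in N750F against wild type DEN, 2 of them called (Vsig4 at 1.65 ± 0.27 and Lyz2 at 1.15 ± 0.20), and none of the 11 was called by limma against heterozygous livers (9 above 0, and 6 at an unadjusted p under 0.05). Their summed level was 11.23 to 11.99 in N750F, 11.39 to 11.98 in knockout, 11.00 to 11.15 in heterozygous, 10.68 to 10.69 in wild type DEN and 11.85 to 12.36 in untreated arrays. Erythroid markers had a summed level of 10.93 to 11.97 in N750F, 11.54 to 11.77 in knockout, 10.75 to 11.41 in heterozygous, 9.92 to 11.09 in wild type DEN and 10.86 to 11.18 in untreated arrays, with none of 5 called in N750F against wild type DEN. The erythroid markers Epb42, Ermap, Klf1, Rhag and Slc4a1 (5 of 7), the macrophage marker C1qa and the endothelial marker Stab1 were below the 95th percentile of the olfactory receptor genes in every array. Sinusoidal endothelial markers were above 0 for 8 of 8 in N750F against wild type DEN (0 called) and for 8 of 8 against heterozygous livers (1 called, Stab1 at 0.93 ± 0.20), with a summed level of 11.05 to 11.69 in N750F, 11.35 to 11.40 in knockout, 10.85 to 11.11 in heterozygous, 11.11 to 11.31 in wild type DEN and 11.56 to 11.69 in untreated arrays. Stellate cell markers were above 0 for 7 of 7 against wild type DEN (1 called, Col3a1 at 1.31 ± 0.28), with a summed level of 12.66 to 13.22 in N750F, 12.91 to 12.93 in knockout, 12.46 to 12.87 in heterozygous, 12.43 to 12.86 in wild type DEN and 12.86 to 13.02 in untreated arrays. The part of these cells in the levels of the subunits was not tested.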

How the data were processed

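Per the labels' protocols, frozen livers gave total RNA, which was amplified (WT-Ovation Pico) for single-colour arrays. The authors deposited 1 linear intensity per probe set and array (35556 probe sets), and the submitters' processing notes name RMA and Affymetrix Expression Console 1.1 without roles. The sources used here give neither a genome build nor the positions of the probes. Array medians of the deposited intensities were 48.2 to 82.99, so the arrays were quantile-normalized (limma 3.58.1, R 4.3.3), and an offset of 16 was added before taking log2. This makes changes of dim genes look smaller.

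Of the probe sets, 21789 had 1 gene symbol, 1621 several and 12146 none listed. Current symbols came from Entrez IDs (GRCm38.p6, names only), which matched for 21698. The probe set of highest mean was used per gene, and the dimmest genes, up to the 25th percentile of the mean level, were not tested. One limma model (lmFit, eBayes, 5 groups and the array run, 7 residual degrees of freedom) gave 10 comparisons, with Benjamini-Hochberg adjustment over the 14953 genes of each. The run came from the raw array names in the labels, and 2187 genes were called for it but none of the subunits. The 8 subunits were named whatever their values. Up to 6 members of other lists were named by smallest p, and members named without a call were picked with their values known. The members and lists were chosen with earlier results of these data known. On simulated arrays the model called 90% of genes with a simulated log2 change of 2, and 38% of those with 1, for N750F against wild type DEN, and 82% and 17% for DEN in wild type.

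Other offsets, scaling, filters, run terms, a sex covariate, probe set rules, priors and the leaving out of arrays were tried.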

Additional observations from a re-analysis of the deposited data

How the results depend on the processing

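The numbers of subunits called depended on the arrays and on the model. For N750F against wild type DEN the 4 calls became 2 without the run term, 0 in run 1 alone, and 2 with the Y-linked covariate. In that comparison Smc4 was called in 9 of 25 alternative settings and Ncapg2 in 13 of 24, while Smc2 was in 23 and Ncapg in 21 of 25. The Smc4 call was also lost with an offset of 1 and on leaving out any 1 array outside the knockout group. For N750F against heterozygous livers the 6 calls became 0 in run 1 alone and 2 with the Y-linked covariate. There the Ncapd2 call was lost in 15 of 24 settings, among them an offset of 50, median scaling, no filter and no run term. The 1 call for knockout against heterozygous livers became 0 with an offset of 1, with median scaling, in run 1 alone and with the Y-linked covariate, and 2 with a trended robust prior. The 3 calls for N750F against untreated livers became 0 with an offset of 1, with median scaling, without the run term, in run 1 alone and with the Y-linked covariate, and 1 with no filter. Heterozygous against untreated livers went to 2 without both knockout arrays. Over the leaving out of each array in turn, calls ran from 0 to 6 for N750F against wild type DEN, 0 to 6 against heterozygous, 0 to 4 against knockout and 0 to 4 against untreated livers, 0 to 5, 0 to 2 and 0 to 1 for knockout against heterozygous, wild type DEN and untreated, and 0 to 2 for heterozygous against untreated. The causes were not tested.

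Replicate numbers 3 and 4 coincide with the array run. Correlations of deviations between arrays of the same number ran from -0.13 to 0.45, at 0.27 or more for numbers 3 and 4 and at 0.13 or less for numbers 1 and 2. In a group of 2 arrays the deviations mirror each other. In the heterozygous and wild type DEN groups, number and run are also the same split. These correlations therefore cannot decide whether the numbers pair the arrays, and the numbers were not taken to do so. With the replicate number as a block in place of the run, calls were 1 for N750F against wild type DEN, 3 against heterozygous, 0 against untreated livers and 0 for knockout against heterozygous livers.

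Signs changed for differences that had not passed. For N750F minus knockout, Ncapd3 became -0.00617 without the run term, -0.0866 with the replicate block and -0.0417 with the Y-linked covariate. For heterozygous minus wild type DEN, Ncapd2 became 0.00858 with median scaling, Ncapg2 0.0438 in run 1 alone and Ncapd3 0.0306 with the Y-linked covariate. On leaving out arrays, N750F minus knockout ran from -0.341 to 1.18 for Smc2, -0.272 to 1.73 for Ncaph, -0.223 to 1.70 for Ncapg, -0.0816 to 0.478 for Ncapd2, -0.263 to 0.809 for Ncapg2 and -0.245 to 0.340 for Ncapd3. Knockout minus wild type DEN ran from -0.0544 to 1.43 for Smc4 and -0.329 to 1.67 for Ncaph, and knockout minus untreated from -0.320 to 1.17 for Smc4, -0.636 to 1.36 for Ncaph, -0.321 to 1.61 for Ncapg and -0.333 to 0.738 for Ncapg2. Heterozygous minus wild type DEN ran from -0.354 to 0.222 for Ncapd2 and -0.228 to 0.0393 for Ncapd3, and wild type DEN minus untreated from -0.488 to 0.0513 for Ncapd3. Of 1702 values of single subunits under alternatives, 24 reversed, 18 of them on leaving out an array, while 136 lost and 27 gained a call.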

Other observations

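The related cohesin and SMC5/6 complexes were read beside condensin. Of all genes, 1.13% were called higher in N750F against wild type DEN and 1.3% against heterozygous livers. Of 17 tested genes of cohesin and its regulators, 3 rose in N750F against wild type DEN and the same 3 against heterozygous livers, with medians of 0.36 and 0.43. They were Esco2, the acetyltransferase of S phase cohesion (2.86 ± 0.44 and 2.70 ± 0.44), Sgo1, shugoshin (2.32 ± 0.48 and 2.18 ± 0.48), and Pttg1, securin (2.37 ± 0.27 and 1.63 ± 0.27). Their limma adjusted p-values were 0.00235 to 0.0369. None of the core subunits passed: Smc1a differed by 0.36 ± 0.19 and 0.60 ± 0.19, Smc3 by 0.20 ± 0.18 and 0.43 ± 0.18, and Rad21 by 0.33 ± 0.21 and 0.51 ± 0.21. Whether condensin and cohesin differed from each other was not tested.

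None of 9 tested SMC5/6 genes was called by limma in either comparison, with medians of 0.37 and 0.42. Smc5 differed by 0.75 ± 0.23 and 0.63 ± 0.23 (limma adjusted p = 0.149 and 0.288, unadjusted p = 0.00584 and 0.0158). Of 16 tested pocket protein and E2F genes, Rbl1, which encodes p107, rose by 1.39 ± 0.29 against wild type DEN, and Rbl1, E2f7, E2f8 and Foxm1 rose against heterozygous livers, by 1.29 to 2.42.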
